A study of Mus musculus with 12 samples.

Results

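The 9 immediate early genes described here were followed through the inhibition of Met and the FGF receptors: Egr1, Egr2, Egr3, Ier2, Ier3, Ier5, Nr4a1, Phlda1 and Srf, taken by symbol from the 55573 genes of one RNA-sequencing count table. All 9 members passed the filter on low counts, which left 13836 genes to test. The cells were 3 spindloid mouse mammary tumour lines named A1005, A1129 and A1471, which come from 1 tumour each of the MMTV-Metmt;Trp53fl/+;Cre model and grown as tumourspheres. In that model the MMTV promoter drives the mutant Met transgene and the Cre recombinase in mammary epithelium, and Cre removes the floxed Trp53 allele. Every group, the vehicle controls included, thus came from mice with the mutant Met transgene and a Trp53 gene subject to conditional deletion. The paper also reports amplification of the endogenous Met locus in this model, and describes the non-spindloid lines as those that keep expressing the transgene. Treatment lasted 24 h and was DMSO (vehicle), Crizotinib (an inhibitor of Met kinase, at 1 µM), PD173074 (an inhibitor of the FGF receptor kinases, at 1 µM) or Combo, the 2 inhibitors together. This gave 12 libraries, 1 from each line under each treatment, so that n = 3 lines per treatment and the lines are the replicates.

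Immediate early genes are transcribed within minutes of growth factor stimulation, without the need for new protein synthesis. Receptor tyrosine kinases such as Met and the FGF receptors activate the Ras-ERK cascade, whose kinases phosphorylate ternary complex factors of the ETS family. These factors sit with serum response factor, the product of Srf, on CArG boxes next to many immediate early promoters. Egr1, Egr2 and Egr3 encode zinc finger transcription factors that bind GC-rich sites, and Nr4a1 encodes an orphan nuclear receptor. Ier2 and Ier5 encode related nuclear proteins, Ier3 encodes a short-lived protein that affects cell survival and ERK signalling, and Phlda1 encodes a pleckstrin homology-like domain protein.

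The sequence next to the start of transcription is shown for 4 of these genes because CArG boxes, ETS sites and EGR sites are the elements through which this class of gene is known to be switched on. RefSeq promoter windows of 300 bases (250 before and 50 after the start, build GRCm38.p6) were used here for 5 members, with 9 windows in all: Egr2, Ier3, Ier5, Nr4a1 and Srf. Each sequence below holds the 150 bases before the start, 5′ to 3′ on the strand of the gene. Capitals mark matches to a CArG box, to the ETS core CCGGAA or to the EGR site GCGNGGGCG, searched on both strands.
Srf, chr17:46556163-46556312, minus strand: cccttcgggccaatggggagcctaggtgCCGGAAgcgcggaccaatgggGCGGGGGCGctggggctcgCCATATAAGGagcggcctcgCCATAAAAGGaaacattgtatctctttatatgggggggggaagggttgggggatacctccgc
Egr2, chr10:67537719-67537868, plus strand: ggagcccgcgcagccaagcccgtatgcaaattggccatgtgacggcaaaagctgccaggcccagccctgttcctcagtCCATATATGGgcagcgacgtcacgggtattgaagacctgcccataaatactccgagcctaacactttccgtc
Nr4a1, chr15:101266696-101266845, plus strand: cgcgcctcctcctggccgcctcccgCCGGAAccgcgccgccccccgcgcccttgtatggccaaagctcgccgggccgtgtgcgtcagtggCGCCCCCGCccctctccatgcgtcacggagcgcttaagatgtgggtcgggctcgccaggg
Ier3, chr17:35821563-35821712, plus strand: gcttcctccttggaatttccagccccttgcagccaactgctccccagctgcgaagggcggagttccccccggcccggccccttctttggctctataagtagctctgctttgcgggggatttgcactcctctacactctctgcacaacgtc
The Srf window held 2 CArG boxes, from -82 to -73 and from -62 to -53 relative to the start, with an ETS core from -122 to -117 and an EGR site from -101 to -93. The Egr2 window around the start next to the bases shown held 1 CArG box, from -72 to -63. Egr2 has 5 windows, of which 4 held 1 CArG box, 3 of them the same box, and the window of the start at position 67537566 also held 3 ETS cores. The 3 include a pair that overlaps on opposite strands. The Nr4a1 window held an ETS core and, on the opposite strand, an EGR site from -60 to -52, and no CArG box. No match to the CArG box, the ETS core, the EGR site or the cyclic AMP response element TGACGTCA was found in the windows of Ier3 and Ier5. Of all 32851 windows in the RefSeq table, 1.63% held a CArG box, 14.9% the ETS core, 5.55% the EGR site and 1.79% the cyclic AMP response element. A match is a description of the letters and says nothing of whether a factor was bound in these cells.

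**Figure D1:**
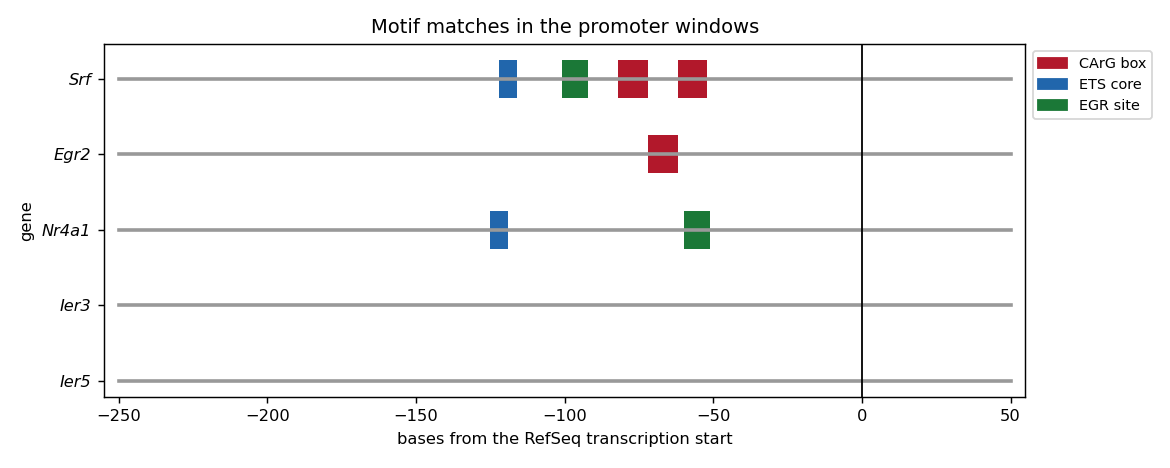
Positions of CArG boxes (red), ETS cores (blue) and EGR sites (green) in 1 RefSeq window for each of 5 genes, plotted in bases from the transcription start (vertical line). The Srf window carried 2 CArG boxes, with an ETS core and an EGR site, and the Egr2 window around the start used above carried 1 CArG box. Nr4a1 carried an ETS core and an EGR site only, and no match was found for Ier3 and Ier5.

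On mm10 the genes lie on chromosomes 18 (Egr1, 34859823 to 34864984, plus strand), 10 (Egr2, 67535475 to 67542188, plus), 14 (Egr3, 70077203 to 70082614, plus), 8 (Ier2, 84661331 to 84662852, minus), 17 (Ier3, 35821684 to 35822923, plus, and Srf, 46548329 to 46556175, minus), 1 (Ier5, 155096361 to 155099636, minus), 15 (Nr4a1, 101254269 to 101274795, plus) and 10 (Phlda1, 111506286 to 111508645, plus). All 9 are protein coding. Phlda1 shares 727 exon bases with the antisense lincRNA Gm28592, which received 1 to 25 counts per library. Since the strand setting of the counting is not given in the sources used here, reads of the pair cannot be told apart. Srf overlaps the antisense lincRNA Gm26904 (0 to 3 counts) and the microRNA gene Mir6976 (0 to 1 counts), with 0 shared exon bases.

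Total counts per library ranged from 13031492 to 17750476. Of the markers of the cells, the mesenchymal gene Vim stood at 2887 ± 353 CPM (SD, n = 3) with DMSO and Twist1 at 113 ± 12.5 CPM. CPM are library-scaled counts (TMM normalization). Cdh2, also a mesenchymal marker, had 0 to 6 counts, and of the epithelial markers Cdh1 had 0 to 9 counts and Krt5 had 0. Summed over 6 epithelial markers, the level was 16.1 to 39.5 CPM with DMSO and 7.31 to 42.1 CPM with Combo. The 5 immune markers summed to 4.34 to 31.3 CPM with DMSO and 8.21 to 41.9 CPM with Combo. Summed levels stayed below 1 CPM in every library for the 3 endothelial markers (highest 0.626 CPM) and for the 2 adipocyte markers (highest 0.0715 CPM). In these bulk libraries, fewer cells of a kind and less RNA per cell cannot be told apart.

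The level of the 9 genes spanned a wide range before inhibition. Per kilobase of merged exons, Ier3 was highest with DMSO at 622 ± 157 CPM per kilobase (SD, n = 3). Ier2 (34.2 ± 8.30), Ier5 (33.3 ± 7.43), Phlda1 (23.2 ± 15.8) and Srf (19.4 ± 2.83) followed, and neighbours in this order did not differ beyond their spread over the lines. Egr1 (4.71 ± 2.71), Nr4a1 (3.21 ± 1.59), Egr3 (2.60 ± 0.869) and Egr2 (0.721 ± 0.791) were lowest. Egr1 and Nr4a1, and Nr4a1 and Egr3, overlapped over the lines, while every Egr2 value lay below every Egr3 value. With Combo, Ier3 was still highest, at 99.7 ± 49.2 CPM per kilobase, and Egr3 became lowest, at 0.157 ± 0.191.

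The results of 2 tests were set side by side for each comparison, both by the quasi-likelihood test of edgeR with Benjamini-Hochberg adjustment over all 13836 genes and a threshold of 0.05. The unpaired fit follows the study's unpaired design, though not its tools or its minimum fold change. It treats libraries of different treatments as independent, although each line recurs in every treatment. The blocked fit compares treatments within a line, as the same line went into every treatment. Fold changes are on the log2 scale. The comparisons share libraries, since all 3 with DMSO use the same controls and all with Combo use the same Combo libraries, so their values are given side by side and are not independent of each other.

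With Combo, the members that passed the test all fell. Against DMSO, 2 of 9 were lower in the unpaired fit (Egr3 and Ier3), where 8.28% of all genes tested were called lower, and 4 of 9 in the blocked fit (Ier2 and Phlda1 in addition), where 26.2% were. The median log2 fold change of the 9 members was -0.54 unpaired and -0.64 blocked, against 0.02 and 0.03 for all genes. Against Crizotinib, the same 2 and the same 4 genes were lower, beside 7.78% and 26% of all genes. Against PD173074, 3 of 9 were lower in the unpaired fit (Egr1, Egr3 and Ier3), beside 3.93% of all genes, and 6 of 9 in the blocked fit (Egr2, Ier2 and Phlda1 in addition), beside 20.2%. Without A1129, or without A1471, the unpaired edgeR fit called 0 of 9 in each of these 3 comparisons, beside 0.428% to 1.76% of all genes called lower, with 2 or 3 members at an unadjusted p under 0.05, beside 10.2% to 19.9%. The blocked fit called Egr3 and Ier3 against DMSO whichever line was left out, with -3.12 to -5.86 for Egr3 and -2.59 to -2.89 for Ier3.

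The combination moved much else in these cells. All 8 proliferation genes listed fell in both fits (median log2 fold change -2.18 in each), with Top2a at -2.55, Bub1 at -2.48 and Ccnb1 at -2.23 in the unpaired fit, and their summed level went from 2404 to 2970 CPM with DMSO to 488 to 710 CPM with Combo. The share of counts on mitochondrial genes was 1.21% to 1.29% with DMSO, 1.44% to 1.48% with Crizotinib, 1.53% to 1.66% with PD173074 and 1.93% to 2.52% with Combo. The part of either in the changes of the 9 genes was not tested.

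Neither single inhibitor brought any of the 9 genes past the test in edgeR. With Crizotinib, 0 of 9 were called in either fit, as were 0% of all genes, and 0 had an unadjusted p under 0.05 in edgeR, beside 0.13% of all genes unpaired and 1.86% blocked. DESeq2 also called 0 of 9, beside 0.00742% unpaired and 0.0145% with the line as a block of the genes to which it gave an adjusted p. With PD173074, 0 of 9 were called in the unpaired fit (0% of all genes) and 0 of 9 in the blocked fit (2.14% of all genes). At an unadjusted p under 0.05 there was 1 member in the unpaired fit, beside 2.22% of all genes, and there were 3 in the blocked fit (Egr1, Egr2 and Ier3), beside 15.7%. DESeq2 with the line as a block called these 3, beside 4.87% of the genes with an adjusted p. The CPM ranges of the 3 lines did not overlap between PD173074 and DMSO for 2 of 9 members, Egr1 higher and Ier3 lower, beside 6.42% of all genes in either direction.

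**Figure D2:**
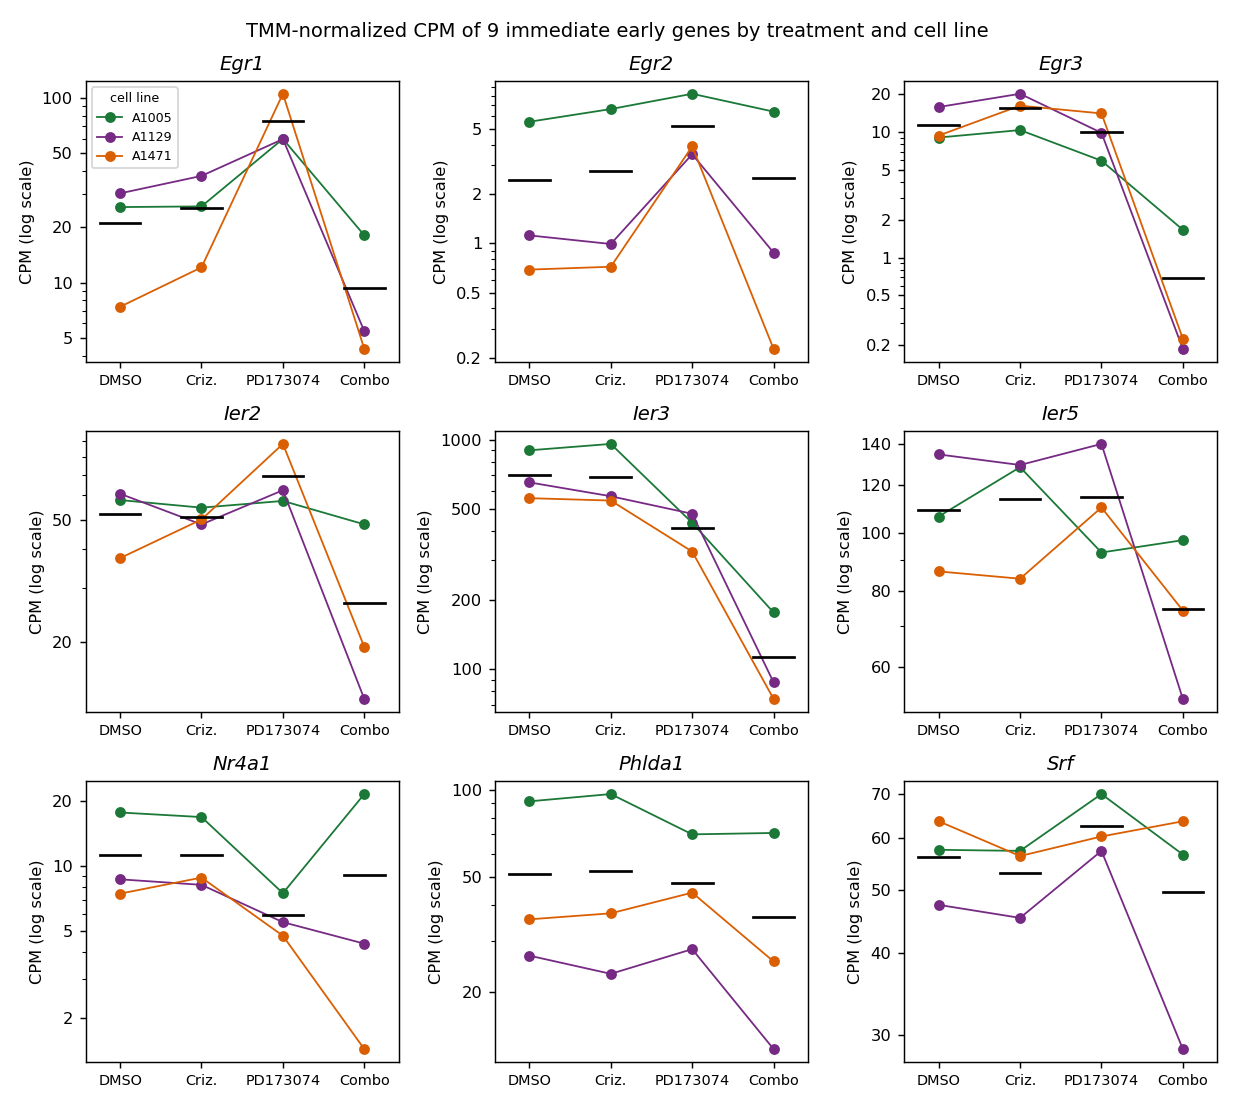
TMM-normalized CPM (log axis) of each gene under the 4 treatments, with 1 point per library, lines joining the libraries of a cell line and black bars at the mean of 3 lines. Ier3 was lowest with Combo in each line, Egr1 was highest with PD173074 in each line, and Nr4a1 with Combo was above DMSO in A1005 and below it in the other lines.

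Egr1, a textbook target of ERK and SRF signalling, was above its DMSO level with PD173074 alone and below it with Combo in each line. With DMSO, Egr1 stood at 25.6 CPM in A1005, 30.4 in A1129 and 7.39 in A1471. With Crizotinib it stood at 25.8, 37.8 and 12.1 CPM in the same order of lines. With PD173074 it was higher in every line, at 59.9, 59.8 and 105 CPM, and with Combo it was lower in every line, at 18, 5.45 and 4.38 CPM. PD173074 and DMSO did not overlap, whereas Combo and DMSO did, since A1005 with Combo lay above A1471 with DMSO. The log2 fold change with PD173074 was 1.83 ± 0.68 (SE) unpaired, with adjusted p = 1, and 2.10 ± 0.58 blocked, with adjusted p = 0.101, and so passed in neither edgeR fit. The changes within the lines (log2 CPM with a prior count of 2) were 1.22 for A1005, 0.97 for A1129 and 3.81 for A1471, the largest in A1471, which had the lowest level with DMSO. Against DMSO, Combo gave -1.18 ± 0.67 unpaired (adjusted p = 0.282) and -1.17 ± 0.58 blocked (adjusted p = 0.115). Against PD173074, Egr1 fell with Combo by 3.01 ± 0.71 unpaired (adjusted p = 0.0407) and fell by 3.26 ± 0.61 blocked (adjusted p = 0.0026).

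Egr3, which is induced by the same signals as Egr1, showed the largest fall among the 9 with Combo. It stood at 9.06, 15.9 and 9.39 CPM with DMSO in A1005, A1129 and A1471, and at 10.4, 20.2 and 16.2 CPM with Crizotinib. With PD173074 it stood at 5.92, 9.88 and 14.1 CPM, and with Combo at 1.67, 0.188 and 0.226 CPM. The Combo libraries lay below all others in every line. Against DMSO, Egr3 fell by 4.01 ± 0.80 unpaired (adjusted p = 0.0103) and fell by 3.85 ± 0.63 blocked (adjusted p = 0.000575). It fell by 4.46 ± 0.82 against Crizotinib (adjusted p = 0.00728) and fell by 3.81 ± 0.80 against PD173074 (adjusted p = 0.025), both unpaired. These folds rest on few counts, since Egr3 had 30 counts with Combo in A1005 and 3 in each of A1129 and A1471. From the counts, Egr3 was 5.43-fold lower with Combo than with DMSO in A1005 (95% counting interval 3.61 to 8.41), 84.3-fold lower in A1129 (28.5 to 412) and 41.5-fold lower in A1471 (13.9 to 204). These exact intervals cover counting error only. With PD173074 alone, Egr3 was -0.20 ± 0.70 unpaired (adjusted p = 1), and the lines went different ways: -0.60 in A1005, -0.68 in A1129 and 0.58 in A1471.

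Egr2, known for its part in Schwann cell myelination and in lymphocytes, had the lowest level per kilobase of the 3 Egr genes with DMSO. In A1005 it stood at 5.54 CPM with DMSO, 6.63 with Crizotinib, 8.22 with PD173074 and 6.39 with Combo. In A1129 the same treatments gave 1.12, 0.991, 3.51 and 0.877 CPM, and in A1471 they gave 0.691, 0.719, 3.92 and 0.226 CPM. PD173074 gave the highest value in every line, yet the groups overlapped because A1005 was high throughout. The change with PD173074 was 1.09 ± 1.25 unpaired (adjusted p = 1) and 1.57 ± 0.48 blocked (adjusted p = 0.136). Combo against DMSO gave 0.04 ± 1.24 unpaired (adjusted p = 0.991) and -0.14 ± 0.50 blocked (adjusted p = 0.829). Against PD173074, Combo gave -1.05 ± 1.25 unpaired (adjusted p = 0.750), and with the line as a block Egr2 fell by 1.71 ± 0.48 (adjusted p = 0.0181). The counts were low, from 3 to 55 per library in A1129 and A1471.

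**Figure D3:**
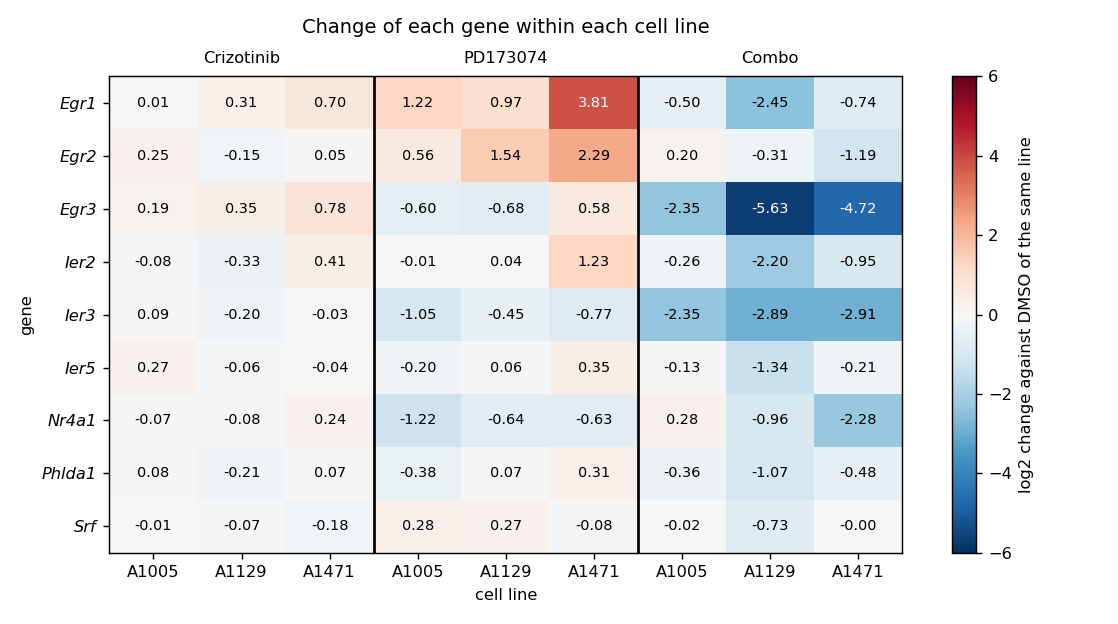
Log2 change of each gene (rows) against DMSO of the same line, for each inhibitor and cell line (columns), from CPM with a prior count of 2. Blue cells lie below 0 and red cells above it. With Combo, Egr1, Egr3, Ier2, Ier3, Ier5 and Phlda1 lie below 0 in all 3 lines. Srf lies at -0.02 in A1005 and -0.00 in A1471. Egr3 and Ier3 have the lowest values in each line, at -2.35 in A1005 for both. A1005 has the value nearest 0 for 8 of 9 genes, the exception being Srf.

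Ier3 had the smallest adjusted p of the 9 genes with Combo against DMSO, and the highest counts (983 to 14053 per library). With DMSO it stood at 900, 652 and 557 CPM in A1005, A1129 and A1471, and with Crizotinib at 960, 568 and 544 CPM. PD173074 gave 435, 476 and 326 CPM, and Combo gave 177, 87.6 and 74.2 CPM. Every Combo library lay below every other library, and every PD173074 library lay below every DMSO library. The mean went from 703 ± 177 CPM with DMSO to 412 ± 77.7 with PD173074 and 113 ± 55.7 with Combo (SD, n = 3). Against DMSO, Ier3 fell with Combo by 2.64 ± 0.38 unpaired, a 6.23-fold difference (adjusted p = 0.00219), and fell by 2.70 ± 0.19 blocked (adjusted p = 4.0e-06). Against PD173074, Combo was lower by 1.87 ± 0.37 unpaired (adjusted p = 0.0191). PD173074 alone gave -0.77 ± 0.36 unpaired (adjusted p = 1) and -0.74 ± 0.18 blocked (adjusted p = 0.0676), and Crizotinib alone gave -0.03 ± 0.36 unpaired. Within the lines Combo gave -2.35 in A1005, -2.89 in A1129 and -2.91 in A1471.

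Ier2, a nuclear protein with a role in transcription, was low with Combo in A1129 and A1471. It stood at 57.8, 60.6 and 37.5 CPM with DMSO, 54.7, 48.2 and 50 with Crizotinib, 57.5, 62.3 and 88.0 with PD173074 and 48.3, 13.1 and 19.3 with Combo, in A1005, A1129 and A1471. The Combo libraries lay below all PD173074 libraries, while A1005 with Combo lay above A1471 with DMSO. Combo against DMSO gave -0.95 ± 0.42 unpaired (adjusted p = 0.165), and with the line as a block Ier2 fell by 1.04 ± 0.37 (adjusted p = 0.0351). Against PD173074 the values were -1.36 ± 0.42 unpaired (adjusted p = 0.105) and a fall of 1.48 ± 0.37 blocked (adjusted p = 0.0114).

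Ier5, a heat shock-responsive relative of Ier2, passed the test in neither edgeR fit over the 3 lines. It stood at 106, 135 and 86.3 CPM with DMSO, 128, 129 and 83.9 with Crizotinib, 92.7, 140 and 110 with PD173074 and 97.2, 53.1 and 74.3 with Combo, in the order A1005, A1129 and A1471. Only in A1129 was the change with Combo beyond -1, at -1.34, with -0.13 in A1005 and -0.21 in A1471. Combo against DMSO gave -0.54 ± 0.28 unpaired (adjusted p = 0.227) and -0.52 ± 0.24 blocked (adjusted p = 0.0884). Of the alternatives, limma-voom with the line as a block called it lower with Combo than with Crizotinib, at -0.63 (adjusted p = 0.0474), and the blocked edgeR fit without A1005 called it lower than with PD173074, at -0.93 (adjusted p = 0.0299).

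Phlda1 passed the test with Combo only in the blocked fit. It stood at 91.0, 26.6 and 35.6 CPM with DMSO, 96.5, 23.0 and 37.3 with Crizotinib, 70.0, 28.1 and 44.0 with PD173074 and 70.8, 12.7 and 25.4 with Combo, in A1005, A1129 and A1471. A1005 was highest under every treatment, and the groups overlapped in every comparison. Combo gave -0.49 ± 0.74 against DMSO unpaired (adjusted p = 0.727), and with the line as a block Phlda1 fell by 0.61 ± 0.19 (adjusted p = 0.0175), with a lower value in 3 of 3 lines. Of the other 2 genes of its family, Phlda2 gave -3.85 ± 0.96 with Combo unpaired (adjusted p = 0.026), from 7.43 ± 4.85 to 0.505 ± 0.338 CPM. Phlda3 gave 0.57 ± 0.63 (adjusted p = 0.615).

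Nr4a1, a nuclear receptor without a known classical ligand, passed the test in no comparison over the 3 lines. In A1005 it stood at 17.6 CPM with DMSO, 16.8 with Crizotinib, 7.49 with PD173074 and 21.5 with Combo. In A1129 the same treatments gave 8.68, 8.19, 5.51 and 4.39 CPM, and in A1471 they gave 7.46, 8.84, 4.77 and 1.43 CPM. The value with PD173074 lay below that with DMSO in every line, while Combo gave 0.28 in A1005, -0.96 in A1129 and -2.28 in A1471 against DMSO. Over the 3 lines, PD173074 gave -0.92 ± 0.80 unpaired (adjusted p = 1) and -0.83 ± 0.46 blocked (adjusted p = 0.420). Combo gave -0.31 ± 0.79 unpaired (adjusted p = 0.855) and -0.64 ± 0.45 blocked (adjusted p = 0.254). Without A1005 the blocked fit called Nr4a1 lower with Combo than with DMSO, at -1.49 (adjusted p = 0.0141), and also lower than with Crizotinib.

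Srf, the transcription factor that binds CArG boxes, passed the test in no comparison. It stood at 57.5, 47.4 and 63.6 CPM with DMSO, 57.3, 45.3 and 56.3 with Crizotinib, 70.0, 57.3 and 60.3 with PD173074 and 56.6, 28.6 and 63.6 with Combo, in A1005, A1129 and A1471. The low value belonged to A1129 with Combo, and the other 2 lines with Combo stayed near their DMSO values, at -0.02 and -0.00. Combo against DMSO gave -0.18 ± 0.27 unpaired (adjusted p = 0.721) and -0.22 ± 0.17 blocked (adjusted p = 0.285). A test that misses the threshold does not show that the level was the same.

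**Figure D4:**
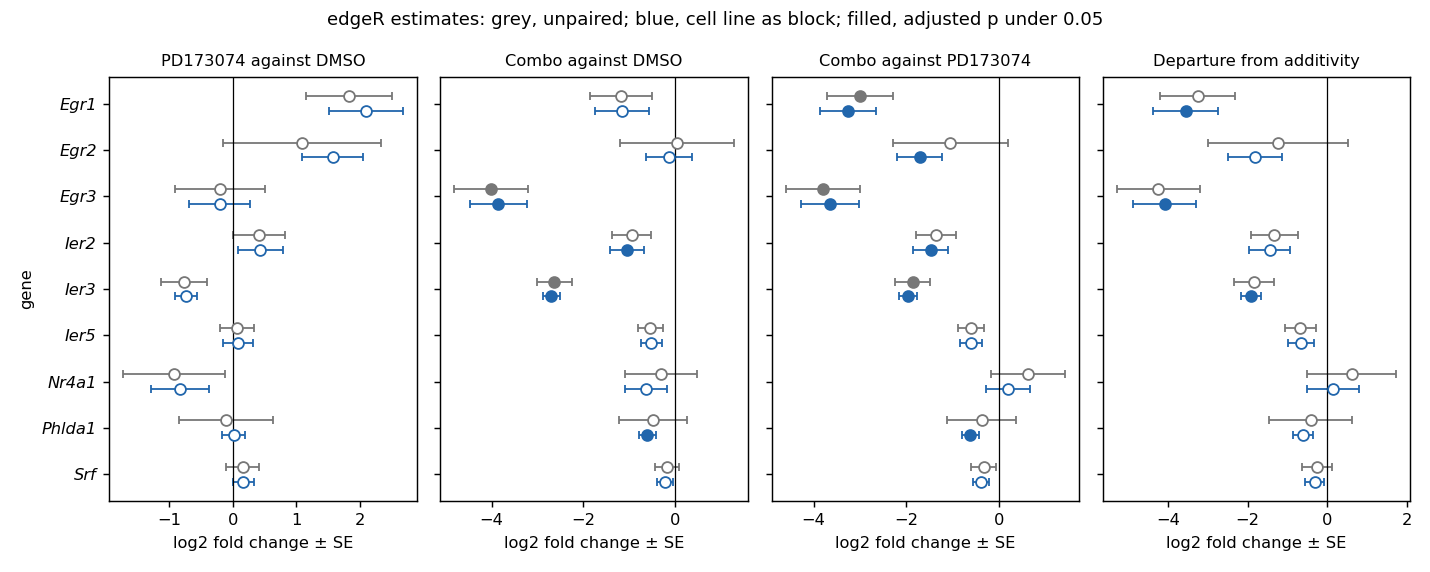
Log2 fold change ± SE (edgeR) of the 9 genes in 4 comparisons, with the unpaired fit in grey and the blocked fit in blue, with filled points at an adjusted p under 0.05. Blue filled points without a filled grey one beside them are calls made only with the block: Ier2 and Phlda1 with Combo against DMSO, Egr2, Ier2 and Phlda1 against PD173074, and Egr1, Egr3 and Ier3 in the departure from additivity.

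The change that PD173074 made in the presence of Crizotinib was compared with the change it made alone. This departure from additivity is the log2 level with Combo minus that with each single inhibitor plus that with DMSO. In the unpaired fit edgeR called 0 of 9, beside 0.911% of all genes called lower, and 4 members had an unadjusted p under 0.05, beside 9.03% of all genes. DESeq2 unpaired called 3, beside 4.3% of the genes with an adjusted p, and limma-voom 0, beside 0.976% of all genes, both shares in either direction. In the blocked fit 3 of 9 were lower than the sum of the single changes, beside 10.7% of all genes. Egr3 departed by -4.09 ± 0.80 (adjusted p = 0.0094), Egr1 by -3.56 ± 0.82 (adjusted p = 0.019) and Ier3 by -1.92 ± 0.26 (adjusted p = 0.0011). For Egr1 the value with PD173074 alone lay above DMSO in each line, whereas for Ier3 it lay below DMSO in each line. Only Ier3 was called in the blocked fit whichever line was left out, with -1.73 to -2.18, since Egr1 and Egr3 lost the call without A1129 (adjusted p = 0.0965 and 0.0841) or without A1471 (adjusted p = 0.102 and 0.129). Egr2 (-1.82 ± 0.69, adjusted p = 0.0984) and Ier2 (-1.45 ± 0.52, adjusted p = 0.0826) did not pass, and Nr4a1 was the only member above 0, at 0.15 ± 0.65.

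The CPM ranges of the lines were also compared without a model. Combo lay wholly below DMSO for 2 of 9 members (Egr3 and Ier3), beside 16.1% of all genes, and wholly below Crizotinib for the same 2, beside 16.1%. Combo lay wholly below PD173074 for 4 of 9 members (Egr1, Egr3, Ier2 and Ier3), beside 12.7%. Between Combo and DMSO the other 7 members overlapped.

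Among the other immediate early genes listed, calls with Combo were in both directions. Of 21 other immediate early transcription factors, 18 were tested, and 2 rose and 1 fell in the unpaired fit, with 7 and 4 in the blocked fit (median log2 fold change 0.19 and 0.17). Of all genes, 6.1% were called higher and 8.28% lower unpaired, and 28.6% and 26.2% blocked, and the counts of this and the following lists with Combo are to be read against these shares. Fosl1, a partner of Jun in AP-1, fell by 3.28 ± 0.36 (adjusted p = 0.000544), from 330 ± 32.9 to 33.9 ± 17.0 CPM. Jund rose by 1.98 ± 0.33 (adjusted p = 0.0042) and Fosl2 by 1.17 ± 0.34 (adjusted p = 0.0465), both also in AP-1. Egr4, the fourth Egr gene, had 0 counts in all 12 libraries, a result that still allows up to 3 counts in a library.

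Of 25 immediate early effectors, 3 rose and 7 fell with Combo in the unpaired fit, and 9 rose and 7 fell in the blocked fit (median 0.13 and 0.01). The largest changes among those called unpaired were those of Dusp6, a phosphatase of ERK, at -5.03 ± 0.54 (adjusted p = 0.000486), of Dusp2, also a MAP kinase phosphatase, at -3.02 ± 0.61 (adjusted p = 0.0104), and of Plaur, the urokinase receptor, at -2.93 ± 0.59 (adjusted p = 0.0101). Dusp6 went from 182 ± 56.7 CPM with DMSO to 5.55 ± 3.44 with Combo. With PD173074 alone, 2 of the 25 rose and 1 fell in the blocked fit, beside 1.62% and 0.52% of all genes. Of 14 genes of the ERK cascade itself, 0 rose and 1 fell unpaired (Rps6ka1, a kinase activated by ERK, by 1.20 ± 0.15, adjusted p = 0.00115), and 2 rose and 5 fell blocked. Of 8 heat shock genes, 4 rose and 3 fell in the blocked fit, while the unpaired values ran from -0.88 to 1.40 without a call. Among the marker lists, Twist1 fell with Combo in both fits (1.09 ± 0.15 unpaired, adjusted p = 0.00156) and was the only one of 5 mesenchymal markers tested that was called unpaired, while Sparc rose and Twist1 fell in the blocked fit. Krt18 fell and Cd68 rose in the blocked fit only, among 2 epithelial and 2 immune markers tested.

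The corepressors that bind Egr proteins, Nab1 and Nab2, were called only in the blocked fit. Nab1 gave -0.57 ± 0.23 unpaired (adjusted p = 0.126) and fell by 0.58 ± 0.11 blocked (adjusted p = 0.0017), and Nab2 gave -0.71 ± 0.57 unpaired (adjusted p = 0.465) and fell by 0.81 ± 0.16 blocked (adjusted p = 0.00191). Of the partners of SRF, Mrtfb, a coactivator that responds to actin, rose by 0.76 ± 0.19 unpaired (adjusted p = 0.0236). Elk3, a ternary complex factor, fell only in the blocked fit, by 0.77 ± 0.14 (adjusted p = 0.00122), and Elk1 and Mrtfa rose only there, by 0.37 ± 0.09 and 0.46 ± 0.09 (adjusted p = 0.00501 and 0.00134). Elk4 gave 0.15 ± 0.08 blocked (adjusted p = 0.128), and Myocd had 0 counts. Of 16 cytoskeletal targets of SRF, 12 were tested, and 1 rose (Cnn2, by 1.66 ± 0.25, adjusted p = 0.00282) and 1 fell (Fhl2, by 1.02 ± 0.26, adjusted p = 0.0305) unpaired, with 5 and 3 blocked (median 0.54 and 0.58). No list beside the proliferation genes had all tested members called in 1 direction in both fits.

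**Figure D5:**
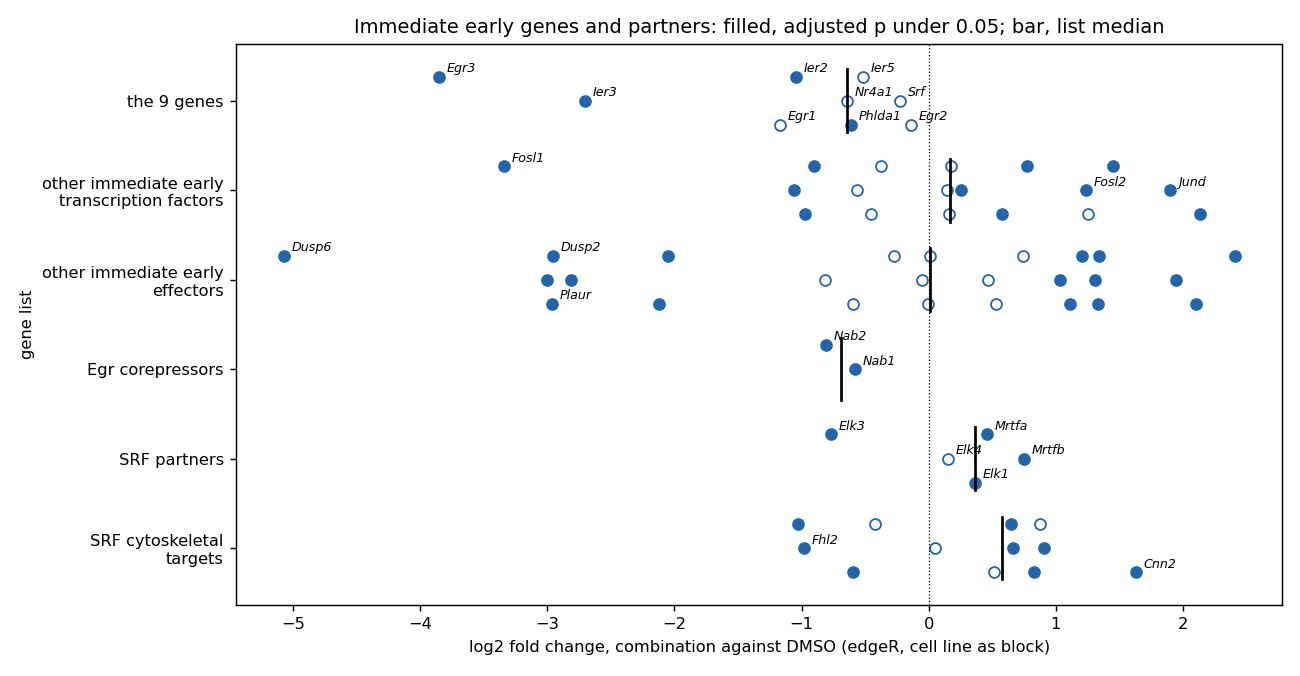
Log2 fold change with Combo against DMSO (edgeR, cell line as a block) of the 9 genes and of 5 lists of related genes, with 1 point per gene, filled at an adjusted p under 0.05, and a bar at the list median. The 9 genes all lie below 0 with a median of -0.64, while the other lists, apart from the Egr corepressors, spread to both sides.

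The genes most like 8 of the 9 members were found by the root mean square difference of log2 CPM. It was taken over the 12 libraries, after centring each line. Candidates were genes that average 3 or more in log2 CPM, and the 9 members themselves were left out. For Ier3 the nearest were Spry2, a feedback inhibitor of receptor tyrosine kinase signalling, at 0.17 and Hmga2, a chromatin protein, at 0.21 log2 units. For Egr3 they were Epha2, an ephrin receptor, at 0.48 and Prkg2, a cyclic GMP-dependent kinase, at 0.52. Outside the 9 members, Egr1 was nearest to Cxcl5 at 0.77 and Socs1 at 0.85. These distances are large beside the root mean square of the centred values of Egr1 itself, 1.30, so neither gene is a close match. The members Egr2 (0.71) and Ier2 (0.74) lay closer to Egr1 than Cxcl5 did. Cxcl5 (0.54) and Capza2 (0.55) were nearest to Egr2, and they too are no close match, as the same measure for Egr2 itself was 0.85. Ier2 was nearest to Socs1 (0.23) and Rrp12 (0.28), and Ier5 to Dph2 (0.11) and Trib1 (0.12). Phlda1 was nearest to Riox2 (0.10) and Rsl24d1 (0.10), and Srf to Camkk2 (0.10) and Med9 (0.10). A gene that varies little over the libraries has small distances by construction. The distances are descriptions, as all points share the 12 libraries.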

How the data were processed

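Tumourspheres of 3 cell lines under 4 treatments were measured by RNA-sequencing. The authors extracted total RNA, sequenced it (NextSeq500), mapped reads to mm10 with STAR and deposited a table of raw, unnormalized counts per Ensembl gene. The submitters' processing notes name bcl2fastq, STAR and HTSeq. Versions, the strand setting and the annotation release are not given in the sources used here. Groups and lines were taken from the sample labels, and every library differed from every other by more than sampling noise (lowest chi-square per degree of freedom 4.54 over 66 pairs).

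After a filter by filterByExpr (minimum count of 10, total of 15) and TMM scaling, edgeR 4.0.16 (R 4.3.3) fitted all 12 libraries by quasi-likelihood, with Benjamini-Hochberg adjustment. The treatment alone was fitted, as the study's methods state an unpaired analysis, and the cell line was added as a block beside it. The lines pair the libraries by origin, and their deviations from the treatment means correlated within a line (mean r = 0.871, lowest 0.766, over 18 pairs of libraries). Between lines the mean r was -0.422 over 36 pairs. Centring each treatment on the mean of its lines makes that value negative by construction, so it is no separate comparison. Whether each library of a line was a separate culture is not stated. Unpaired p-values measure the spread between lines within a treatment. Blocked p-values measure how far the treatment changes differ between lines, with 1 library per line and treatment. Log2 CPM used a prior count of 2. Counting intervals are exact 95% intervals (Clopper-Pearson on the split of the summed count), and they cover counting error only, as the reads carry no molecular identifiers.

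Coordinates and exon lengths came from GENCODE M21 on mm10, which holds 55480 of the 55573 genes. Promoter sequences came from the RefSeq table of GRCm38.p6, the assembly that mm10 names.

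The members, lists and tests were chosen with earlier results of these data known. Named are the members, all SRF partners and Egr corepressors, and genes that overlap a member. Also named are the 3 called genes of each list with the largest change with Combo against DMSO in the unpaired fit. The 2 non-member genes most like each member are named as well. Sparc, Krt18, Cd68, Egr4, Phlda3 and the markers at or near 0 were named after their values were seen. The genes most like Nr4a1 and the level of 1 immune marker are not reported here.

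The alternatives were DESeq2 1.42.0, limma-voom (limma 3.58.1), other scalings, other filters, only the groups compared, a minimum log2 fold change of 1.5, a prior count of 0.5 and leaving out each line. DESeq2 and limma-voom with the block were added after the data were seen. On simulated counts with a log2 fold change of 2 and no difference between lines, the unpaired fit recovered 191 of 194 changed genes with 9 false calls among 13512 genes (Combo against DMSO). With a simulated difference between lines it recovered 0 of 192 and the blocked fit 189, with 14 false calls among 13565 genes. The simulation gave all genes the same dispersion and every line the same treatment change, and drew the line differences at random. The real libraries need not share these settings, so the recovered counts do not measure how either fit behaves on them. Plots were made with Python 3.11.15 and matplotlib 3.10.9.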

Additional observations from a re-analysis of the deposited data

Results flagged for a closer look

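For 3 genes the change with PD173074 differed between the presence and the absence of Crizotinib by a test of the difference itself, in the blocked edgeR fit. The log2 difference was -3.56 for Egr1 (adjusted p = 0.019), -4.09 for Egr3 (adjusted p = 0.0094) and -1.92 for Ier3 (adjusted p = 0.0011). In that fit 10.7% of all genes were called lower. Each of the 3 had a negative value in 3 of 3 lines, as did Egr2, Ier2, Ier5 and Phlda1, which were not called. In the unpaired fit none of the 3 passed, beside 0.911% of all genes called lower.

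In 9 further cases, lines moved in opposite directions by more than their 95% counting intervals. Each line has 1 library per treatment, so the differences between lines were not tested. The widest were those of Nr4a1, where the log2 changes of the lines spanned 2.66 for Combo against DMSO, 2.98 against Crizotinib and 3.25 against PD173074, with A1005 above 0 and A1471 below 0 each time. With PD173074 against DMSO, the span was 1.27 for Egr3 (A1471 above 0, A1005 and A1129 below), 0.686 for Phlda1 and 0.549 for Ier5 (both with A1471 above 0 and A1005 below). With Crizotinib against DMSO it was 0.747 for Ier2 (A1471 above 0, A1129 below) and 0.293 for Ier3 (A1005 above 0, A1129 below). For Srf, Combo against Crizotinib spanned 0.841, with A1471 above 0 and A1129 below. In all, 45 pairs of a gene and a comparison were looked at in this way. The share of all genes that meet this rule was not computed, so the count does not set these genes apart. The intervals cover counting error only and are narrow at high counts, where small changes can meet the rule.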

How the results depend on the processing

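No fold change of the 9 genes that passed a test in any setting had the opposite sign to the unpaired edgeR value. With the cell line as a replicate block, 4 members were called with Combo against DMSO (2 unpaired), 4 against Crizotinib (2), 6 against PD173074 (3) and 3 in the departure from additivity (0), all lower. Beside them, the blocked fit called 26.2%, 26%, 20.2% and 10.7% of all genes lower in that order. The unpaired fit called 8.28%, 7.78%, 3.93% and 0.911% lower. The block changed no call of a member with a single inhibitor. DESeq2 called 3 in the departure without the block, beside 4.3% in either direction of the genes to which it gave an adjusted p. With the block DESeq2 called 4, 4, 6 and 5 in the same order, all lower, beside 24.6%, 24.4%, 19.4% and 13.7% called lower of the genes to which it gave an adjusted p, and 3 with PD173074 against DMSO (0), beside 4.87% in either direction. With the block limma-voom called 4, 5, 6 and 3, all lower, beside 26.9%, 26.6%, 21.1% and 11.2% of all genes. With at least 10 counts in every library, which removes Egr2 and Egr3 from the test, 1 member remained called against DMSO and 1 against Crizotinib. Over the whole table, that setting called 1957 and 1862 genes in either direction. The share of its tested genes called lower is not given here, so the member counts of that setting cannot be read against a share. With only the groups compared in the fit, the counts were 1 against DMSO, 1 against Crizotinib and 0 against PD173074 (4 at an unadjusted p under 0.05). Of all genes, 3.02%, 3.05% and 0.905% were called lower in that order. Against PD173074, 15.9% of all genes had an unadjusted p under 0.05. The departure was not run with only the groups compared, since it uses all 4. Leaving out each line in turn gave 0 to 3 members unpaired in each of the Combo comparisons and 0 in the departure. Beside them, 0.77% to 8.42% of all genes were called lower against DMSO, 0.685% to 7.64% against Crizotinib and 0.428% to 3.77% against PD173074. In the departure the share was 0%. With the block, leaving out a line gave 2 to 5 members against DMSO, beside 17.4% to 24.5% of all genes called lower. The counts were 2 to 6 against Crizotinib (16.5% to 23.8%) and 3 to 7 against PD173074 (11.1% to 18.9%). In the departure they were 1 to 4 (2.7% to 8.81%). The low counts of members belong to the fits without A1129 or without A1471. Beyond fewer samples or genes, the cause of these differences was not tested. Over the whole table, Combo against DMSO called 1990 genes unpaired, 7578 with the block, 3032 with DESeq2, 1160 without a filter, 594 with only the groups compared, 794 at a minimum log2 fold change of 1.5, 324 without A1129 and 120 without A1471, and PD173074 against DMSO called 0 unpaired, 296 with the block, 17 with DESeq2 and 635 with DESeq2 and the block. Scaling by total counts or by DESeq2's size factors changed no call of a member and moved the median of all genes by under 0.1, and every mean level moved by less than its spread over the lines. Depth limits Egr2 and Egr3, whose lowest counts were 3.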
